A study of Homo sapiens with 12 samples.

Results

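The genes described here encode 10 surface antigens at which antibodies, antibody conjugates or engineered T cells have been aimed in myeloid leukemia: CD33, CLEC12A, HAVCR2, CD47, SIRPA, CD44, CD36, CD93, CD70 and CD200. They were picked by gene symbol as the count table lists it, and make up 10 of its 59251 genes. HL60 is a human acute myeloid leukemia line, which the study describes as lacking the PML-RARA fusion of acute promyelocytic leukemia. Cells were left non-treated, or were given all-trans retinoic acid (ATRA) or palbociclib (CDK4/6i), each at 1 µM for 48 h. Others were given both agents at these doses for 48 h (CDK4/6i+ATRA). Palbociclib is an inhibitor of the kinases CDK4 and CDK6. RNA-Seq covered 3 libraries in each of these 4 groups, which the labels call biological replicates. The comparisons ask how each agent, and the pair, changed the mRNA of the antigens, and whether the pair did more or less than the single agents added up.

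Total counts in libraries 1, 2 and 3 were 16242414, 15392648 and 16935515 in the non-treated group and 15238994, 16048027 and 17010052 with ATRA. With CDK4/6i they were 18679544, 15576806 and 16222454, and with CDK4/6i+ATRA 12230923, 13103560 and 14415276. Levels are given as CPM, the unit of counts scaled to sequencing depth, on TMM-scaled library sizes. A gene with no count in a library may lie at up to 3 counts there, which was 0.156 CPM in the deepest library and 0.275 CPM in the shallowest, for counting error only. The p-values are edgeR's, adjusted over 13318 tested genes. They weigh each difference against the spread between libraries of the same group, and so speak only for repeats in this cell line.

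Antigens of this kind mark the myeloid lineage or pass signals between leukemic cells and immune cells, and most are also present on normal myeloid cells at some stage of maturation. Retinoic acid drives HL60 cells toward granulocytes, and inhibition of CDK4/6 holds cells before DNA synthesis. The mRNA level does not give the amount of protein at the cell surface, which was not analysed here.

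Marker genes were read first, as a check of the label HL60. The 7 promyelocyte markers summed to 7210 ± 179 CPM (SD, n = 3) in non-treated and 4060 ± 63.2 with CDK4/6i, but to 902 ± 22.9 with ATRA and 960 ± 20 with the pair. MPO was their most abundant gene in non-treated cells, at 6520 CPM against 3470 with CDK4/6i, 293 with ATRA and 28.0 with the pair. In the CDK4/6i+ATRA libraries SPI1 held most of the sum, at 855 CPM. Among these 7, ELANE, PRTN3 and AZU1 had 0 counts in every library; all 3 are also listed on an alternate contig, and whether that left their reads uncounted was not tested. For the mature neutrophil, 5 markers summed to 84.8, 172, 136 and 174 CPM in non-treated, ATRA, CDK4/6i and CDK4/6i+ATRA, mostly CSF3R and CXCR2, while FCGR3B and LTF had at most 5 counts in any library. Monocyte or macrophage markers, 5 genes led by CD68, summed to 3.11, 19.9, 3.88 and 45.1 CPM in the same order.

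Markers of other cell types were low in all 12 libraries. The 5 T cell genes summed to at most 3.12 CPM in any library, nearly all of it CD3E, and TRAC had 0 counts. Of the B cell genes CD79A gave 14.2 to 23.7 CPM by group, while MS4A1 had 0 counts in every library and PAX5 at most 3. Megakaryocyte or platelet markers, 4 genes, reached 10.2 CPM in 1 library through ITGA2B, with PF4 at 0 counts throughout. Of the erythroid genes HBB and HBA1 had 0 counts in every library and ALAS2 at most 2. The 4 endothelial genes reached 0.221 CPM, led by KDR, with TEK at 0 counts. The 4 fibroblast genes reached 1.32 CPM, led by LUM in non-treated, with COL1A2 at 0 counts. In bulk RNA a smaller share of cells making a transcript and less of it in each cell cannot be told apart, and this holds for every level below.

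CD33 and CLEC12A are receptors with inhibitory motifs in their cytoplasmic tails, CD33 binding sialic acids and CLEC12A being a C-type lectin. CD33 lies at chr19:51211076-51240016 on the + strand (GRCh38) with 14 exons. Its level in libraries 1, 2 and 3 was 93.2, 91.9 and 96.7 CPM in non-treated and 79.3, 74.0 and 80.4 CPM with ATRA. With CDK4/6i it was 122, 116 and 117 CPM, and with CDK4/6i+ATRA 93.8, 102 and 103 CPM. The ATRA libraries lay below all others and the CDK4/6i libraries above all others, while non-treated and CDK4/6i+ATRA overlapped. SIGLEC22P shares 451 exonic bases with CD33 on the same strand and had 1 count over the 12 libraries.

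ATRA lowered CD33 relative to non-treated, with a log2 fold change of -0.27 (SE 0.046, edgeR adjusted p 1.18e-06, lower in 3 of 3 libraries). CDK4/6i raised it by a log2 fold change of 0.34 (SE 0.044, edgeR adjusted p 6.35e-09). CD33 with CDK4/6i+ATRA missed the threshold against non-treated (log2 fold change 0.09, SE 0.047, edgeR adjusted p 0.0805), which does not show that the levels were equal. That value hung on the setting. Scaling by library size alone turned it to -0.18 (edgeR adjusted p 0.000599) and no filter to -0.020 (edgeR adjusted p 0.858), and over the alternatives it ran from -0.18 to 0.12. Leaving out CDK4/6i+ATRA library 1 gave 0.13 (edgeR adjusted p 0.0179), and the edgeR adjusted p was 0.0385 with DESeq2's size factors and 0.0146 with only genes of at least 10 counts in every library. Against ATRA the CDK4/6i+ATRA libraries were higher (log2 fold change 0.36, edgeR adjusted p 4.78e-09), a call lost with library size alone (0.05, edgeR adjusted p 0.327; 8.29e-10 to 0.327 over the alternatives). Against CDK4/6i they were lower (log2 fold change -0.25, edgeR adjusted p 4.47e-06; -0.53 with library size alone).

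CLEC12A spans chr12:9951268-10006150 on the + strand with 12 exons. Non-treated libraries 1, 2 and 3 held 18.8, 17.8 and 15.9 CPM, and ATRA libraries 4.81, 4.26 and 5.91 CPM. CDK4/6i libraries held 33.9, 34.3 and 36.6 CPM and CDK4/6i+ATRA libraries 13.0, 12.9 and 13.0 CPM. No 2 groups overlapped: CLEC12A was lowest with ATRA, then CDK4/6i+ATRA, then non-treated, and highest with CDK4/6i. Its log2 fold change was -1.80 with ATRA (SE 0.11, edgeR adjusted p 7.98e-20) and 1.00 with CDK4/6i (SE 0.082, edgeR adjusted p 5.23e-15). CDK4/6i+ATRA left it lower than non-treated by a log2 fold change of -0.43 (SE 0.10, edgeR adjusted p 0.000159; -0.70 with library size alone). Relative to ATRA the CDK4/6i+ATRA level was higher by 1.37 on the log2 scale (edgeR adjusted p 6.97e-14), and relative to CDK4/6i it fell by 1.43 (edgeR adjusted p 2.54e-19).

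The 250 bases before the transcript start of CLEC12A (chr12:9971159-9971408, + strand, GRCh38.p14) are 32.8% G and C, and are printed in transcript direction with motif matches in capitals. They hold AGTTCA, a variant of the retinoic acid receptor half-site, 37 to 32 bases before the start, a match found in 8.8% of 35116 promoters searched on both strands. GAGGAA, the core of PU.1 sites, lies 65 to 60 bases before the start (23.6% of promoters) and CCAAT 213 to 209 bases before it (32% of promoters). A match describes the sequence and shows no binding.
CLEC12A: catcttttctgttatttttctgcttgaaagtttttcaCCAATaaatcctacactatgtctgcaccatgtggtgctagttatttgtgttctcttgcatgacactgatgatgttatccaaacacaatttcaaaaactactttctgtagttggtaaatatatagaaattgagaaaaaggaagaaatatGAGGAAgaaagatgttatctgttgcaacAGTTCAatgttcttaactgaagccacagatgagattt

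The ratio of CD33 to CLEC12A within a library is free of any scaling between libraries. There were 5.40 ± 0.607 CD33 counts per CLEC12A count in non-treated (SD, n = 3) and 15.8 ± 1.99 with ATRA. CDK4/6i gave 3.39 ± 0.206 and CDK4/6i+ATRA 7.69 ± 0.428. The 4 groups did not overlap in this ratio.

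HAVCR2, also called TIM-3, is a receptor for galectin-9 and other ligands, and spans chr5:157085832-157109044 on the - strand with 7 exons. Its counts in libraries 1, 2 and 3 were 0, 4 and 0 in non-treated and 4, 5 and 6 with ATRA. With CDK4/6i they were 2, 1 and 0, and with CDK4/6i+ATRA 51, 61 and 54. In CPM the CDK4/6i+ATRA libraries held 4.68, 5.44 and 4.46, and the highest library of any other group 0.332. HAVCR2 entered the test through its CDK4/6i+ATRA libraries alone, which lay above all others, while non-treated overlapped ATRA and CDK4/6i.

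Over the summed counts HAVCR2 with CDK4/6i+ATRA was 61.0-fold higher than non-treated (exact 95% counting interval 23.4 to 227, edgeR adjusted p 1.2e-14). Against CDK4/6i the ratio was 85.2 (interval 28.7 to 418, edgeR adjusted p 4.85e-15). These 2 sizes rest on few counts: the log2 fold change against non-treated was 5.80, but 9.25 without non-treated library 2 and 5.21 without library 3, and against CDK4/6i it was 6.23, but 7.004 without CDK4/6i library 1, all of them called. The log2 fold change against ATRA was 4.02 (SE 0.41, edgeR adjusted p 1.82e-12). ATRA alone gave a ratio of 3.67 over non-treated (interval 1.17 to 15.2) at the edge of the threshold (log2 fold change 1.77, edgeR adjusted p 0.0498). The log2 value was 5.23 without non-treated library 2, still called. The call was lost without non-treated library 1 or 3, without any 1 of the ATRA or CDK4/6i+ATRA libraries, and without CDK4/6i library 2, with edgeR adjusted p from 0.0534 to 0.212. It was also lost with no filter (edgeR adjusted p 0.0634), with the replicate number as a block (0.0536) and without genes on more than 1 contig (0.0506), in a range of 0.0416 to 0.0634 over the alternatives. With CDK4/6i the 3 counts against 4 in non-treated gave no call, and the sign of its change reversed without non-treated library 2 (3.03) or CDK4/6i library 3 (0.07).

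**Figure D1:**
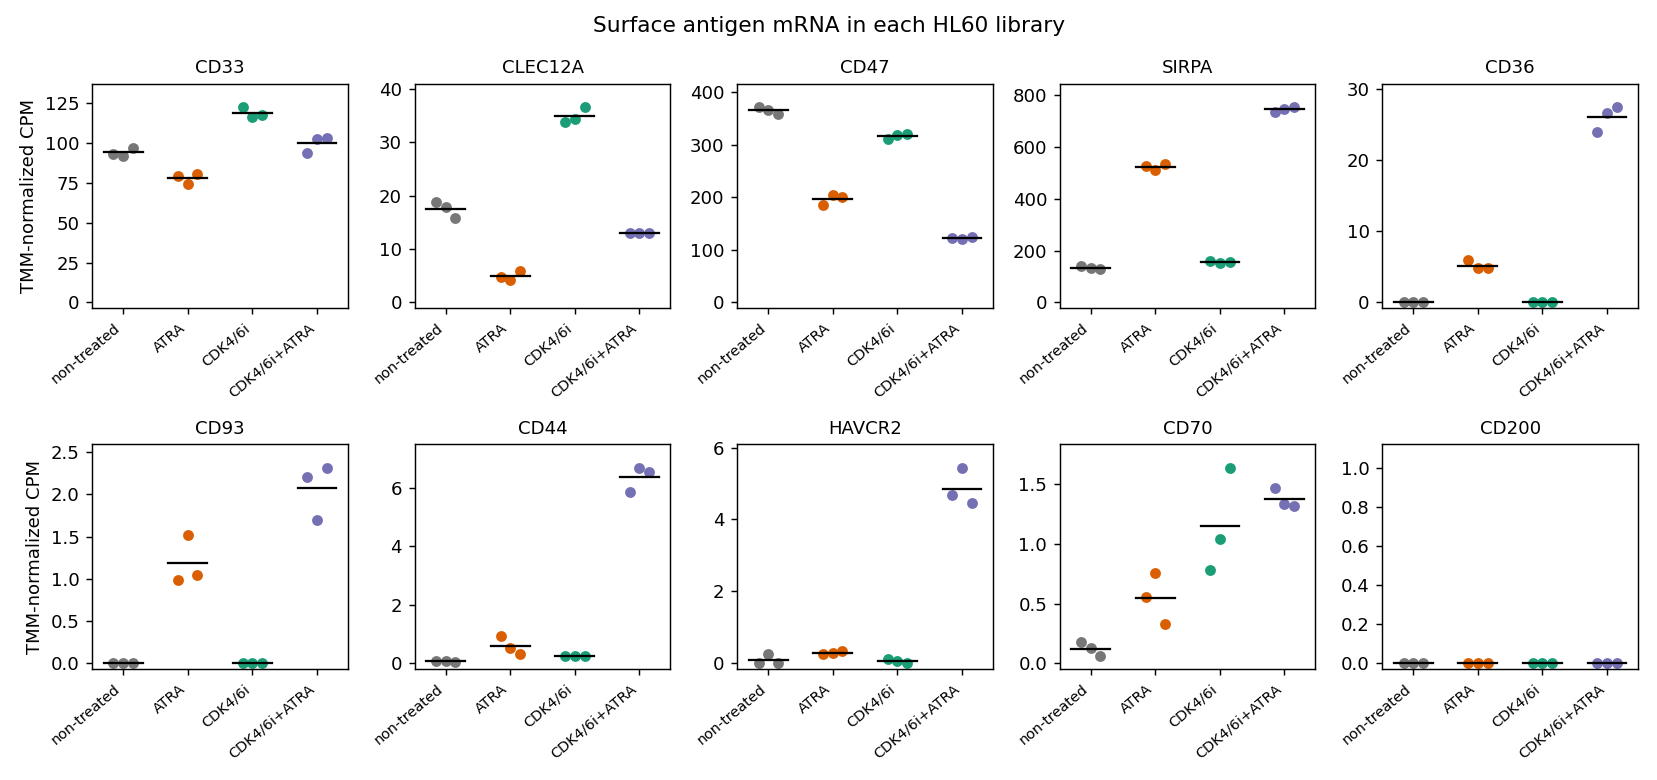
TMM-normalized CPM (vertical axes, each panel on its own linear scale) of the 10 antigen genes by group; dots are the 3 libraries of a group and black lines their means. CD47 fell and SIRPA rose from non-treated to CDK4/6i+ATRA, and CD36 was at 0 without ATRA.

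CD47 is the ligand of SIRPA, an inhibitory receptor of phagocytes, and together they form a signal that restrains engulfment. CD47 spans chr3:108043091-108091031 on the - strand with 13 exons. Its level in non-treated libraries 1, 2 and 3 was 372, 367 and 358 CPM, and in ATRA libraries 186, 205 and 200 CPM. CDK4/6i gave 311, 318 and 320 CPM, and CDK4/6i+ATRA 123, 121 and 125 CPM. No 2 groups overlapped, and the order from high to low was non-treated, CDK4/6i, ATRA, CDK4/6i+ATRA. ATRA changed CD47 by a log2 fold change of -0.89 against non-treated (SE 0.038, edgeR adjusted p 1.58e-26). CDK4/6i also lowered it, with a log2 fold change of -0.21 (SE 0.036, edgeR adjusted p 2.66e-06). CDK4/6i+ATRA changed it by -1.58 on the log2 scale (SE 0.041, edgeR adjusted p 4.56e-36), to 0.336 of the non-treated level. CDK4/6i+ATRA also lay below ATRA (log2 fold change -0.68, edgeR adjusted p 3.99e-20; -0.99 with library size alone) and below CDK4/6i (-1.37, edgeR adjusted p 3.71e-33).

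Before the start of CD47 the 250 bases (chr3:108091032-108091281, - strand, GRCh38.p14) are 79.6% G and C. They hold GGCGGGAA, a form of the E2F motif, 37 to 30 bases before the start, found in 2.72% of promoters. GGGCGG, the core of SP1 sites, matches at 6 places (42.6% of promoters have a match), of which the nearest overlaps GGCGGGAA. AGGTCA, the retinoic acid receptor half-site, matches on the opposite strand 220 to 215 bases before the start (12.1% of promoters).
CD47: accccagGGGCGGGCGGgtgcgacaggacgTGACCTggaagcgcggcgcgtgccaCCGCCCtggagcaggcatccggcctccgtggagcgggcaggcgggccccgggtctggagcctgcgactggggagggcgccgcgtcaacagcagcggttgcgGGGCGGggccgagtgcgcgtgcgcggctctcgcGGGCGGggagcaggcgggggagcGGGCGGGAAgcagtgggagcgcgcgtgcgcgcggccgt

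SIRPA spans chr20:1894167-1940592 on the + strand with 12 exons, of which the longest has 17563 bases. Non-treated libraries 1, 2 and 3 held 139, 134 and 127 CPM of it, and ATRA libraries 524, 509.7 and 532 CPM. With CDK4/6i the level was 159, 153 and 155 CPM, and with CDK4/6i+ATRA 732, 745 and 752 CPM. The groups did not overlap, and their order from low to high was non-treated, CDK4/6i, ATRA, CDK4/6i+ATRA. SIRPA rose with ATRA by a log2 fold change of 1.97 (SE 0.039, edgeR adjusted p 3.27e-40). It rose with CDK4/6i by 0.22 on the log2 scale (SE 0.041, edgeR adjusted p 6.76e-06). Under CDK4/6i+ATRA it was 5.57-fold the non-treated level (log2 fold change 2.48, SE 0.040, edgeR adjusted p 5.78e-45). Over ATRA the CDK4/6i+ATRA level was 1.42-fold (log2 fold change 0.51, edgeR adjusted p 1.2e-17; 0.20 with library size alone, still called), and over CDK4/6i 4.78-fold (log2 fold change 2.26, edgeR adjusted p 2.61e-43). A gene on the opposite strand, LOC107984088, shares 84 exonic bases with SIRPA and had 562 counts against 67244, and the strand used in counting is not given in the sources used here. Reads shared with the close relative SIRPB1, which had 22052 counts, could have been split between the 2 genes.

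CD47 counts per SIRPA count were 2.74 ± 0.0656 in non-treated (SD, n = 3) and 0.377 ± 0.0240 with ATRA. CDK4/6i gave 2.04 ± 0.0666 and the pair 0.165 ± 0.00306. The groups did not overlap, and the ratio needs no scaling between libraries. Turned around, SIRPA counts per CD47 count went from 0.365 in non-treated to 6.06 with CDK4/6i+ATRA.

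**Figure D2:**
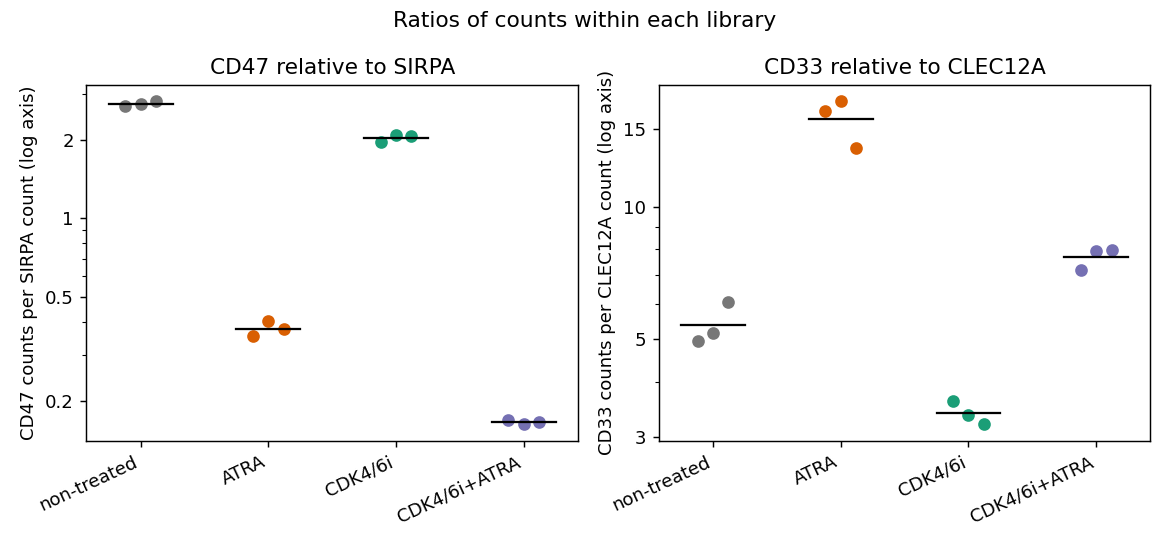
Ratios of counts within each library (log axes) for CD47 to SIRPA and for CD33 to CLEC12A; dots are the 3 libraries of each group and lines their means. CD47 per SIRPA ran from 2.74 in non-treated to 0.165 with CDK4/6i+ATRA, and CD33 per CLEC12A was highest with ATRA at 15.8.

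Adhesion and uptake receptors follow: CD44 binds hyaluronan, CD36 takes up fatty acids and oxidized lipoproteins, and CD93 is a C-type lectin-like receptor of stem and endothelial cells. CD44 spans chr11:35139171-35232402 on the + strand with 20 exons. It had 1 count in each non-treated library and 15, 9 and 6 counts in ATRA libraries 1, 2 and 3. CDK4/6i libraries had 5, 4 and 4 counts, and CDK4/6i+ATRA libraries 64, 75 and 79. As CPM the CDK4/6i+ATRA libraries held 5.87, 6.69 and 6.53, and the highest other library, in the ATRA group, 0.924. No 2 groups overlapped, though CD44 entered the test through its CDK4/6i+ATRA libraries alone.

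CD44 with CDK4/6i+ATRA had 107 times its non-treated level in summed counts (exact 95% counting interval 36.1 to 522, edgeR adjusted p 2.65e-18). ATRA alone gave a ratio of 9.78 (interval 3.04 to 50.1, edgeR adjusted p 7.21e-05). CDK4/6i gave 4.14 (interval 1.14 to 22.6), close to the threshold at an edgeR adjusted p of 0.0418. Leaving out any 1 of the 3 non-treated or 3 CDK4/6i libraries lost that call, with edgeR adjusted p from 0.0627 to 0.0941; DESeq2 gave an adjusted p of 0.058 and no filter an edgeR adjusted p of 0.0743. The CDK4/6i+ATRA level was 10.7-fold that with ATRA (log2 fold change 3.43, SE 0.31, edgeR adjusted p 4.69e-14). It was 25-fold that with CDK4/6i (log2 fold change 4.65, SE 0.36, edgeR adjusted p 1.21e-16).

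The 250 bases before the start of CD44 (chr11:35138921-35139170, + strand, GRCh38.p14) are 62.4% G and C. AGGTCA matches 52 to 47 bases before the start and GGGCGG at 2 places, 170 to 165 bases before it and, on the opposite strand, 152 to 147. Before the start of CD36 the sequence is that of the farthest upstream of 6 listed starts (chr7:80601957-80602206, + strand, GRCh38.p14), which is not the start of the MANE Select transcript, and is 37.2% G and C. There GAGGAA matches on the opposite strand 140 to 135 bases before the start, and TATAAA, found in 10.7% of promoters, 211 to 206 bases before it on the opposite strand.
CD44: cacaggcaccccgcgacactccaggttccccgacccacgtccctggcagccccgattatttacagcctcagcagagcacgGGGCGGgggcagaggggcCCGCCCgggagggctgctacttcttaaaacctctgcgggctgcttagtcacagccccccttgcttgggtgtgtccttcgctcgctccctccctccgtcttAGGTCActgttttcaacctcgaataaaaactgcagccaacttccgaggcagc
CD36: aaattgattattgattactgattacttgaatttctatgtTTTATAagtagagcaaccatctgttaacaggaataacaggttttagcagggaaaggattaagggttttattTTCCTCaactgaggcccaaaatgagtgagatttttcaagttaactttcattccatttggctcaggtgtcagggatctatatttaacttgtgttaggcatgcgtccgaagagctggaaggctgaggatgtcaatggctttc

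CD36 spans chr7:80602207-80679274 on the + strand with 22 exons. It had 0 counts in all 3 non-treated and all 3 CDK4/6i libraries. ATRA libraries 1, 2 and 3 had 96, 83 and 87 counts, or 5.92, 4.84 and 4.81 CPM. CDK4/6i+ATRA libraries had 262, 300 and 333 counts, or 24.0, 26.7 and 27.5 CPM. CD36 was therefore detected with ATRA only, alone or in the pair, and every CDK4/6i+ATRA library lay above every ATRA library. Against non-treated it was at least 29.0-fold higher with ATRA (edgeR adjusted p 7.05e-20) and at least 146-fold higher with CDK4/6i+ATRA (edgeR adjusted p 3.72e-30), taking 3 counts per library as the floor. Against CDK4/6i it was at least 152-fold higher with CDK4/6i+ATRA (edgeR adjusted p 3.33e-30). Relative to ATRA the CDK4/6i+ATRA level was 5.04-fold (log2 fold change 2.33, SE 0.13, edgeR adjusted p 2.59e-20).

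CD93 spans chr20:23079360-23086324 on the - strand with 2 exons. Like CD36 it had 0 counts in every non-treated and CDK4/6i library. ATRA libraries 1, 2 and 3 had 16, 26 and 19 counts (0.986, 1.52 and 1.05 CPM), and CDK4/6i+ATRA libraries 24, 19 and 28 (2.20, 1.69 and 2.31 CPM). In CPM the CDK4/6i+ATRA libraries lay above the ATRA libraries. CD93 was at least 6.61-fold higher with ATRA than in non-treated (edgeR adjusted p 4.38e-09). With CDK4/6i+ATRA it was at least 11.6-fold higher than in non-treated (edgeR adjusted p 1.73e-11) and at least 12.1-fold higher than with CDK4/6i (edgeR adjusted p 1.35e-11). Between CDK4/6i+ATRA and ATRA the log2 fold change was 0.80 (SE 0.35, edgeR adjusted p 0.0402). This call was lost without ATRA library 1 (0.138), ATRA library 3 (0.121), CDK4/6i+ATRA library 1 (0.105) or CDK4/6i+ATRA library 3 (0.136), each an edgeR adjusted p. It was also lost with library size alone (log2 fold change 0.50, edgeR adjusted p 0.206), with no filter (edgeR adjusted p 0.142), with the replicate number as a block (edgeR adjusted p 0.0527) and by DESeq2 (adjusted p 0.0864).

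CD70 and CD200 are ligands, CD70 of the TNF receptor family member CD27 and CD200 of an inhibitory receptor, CD200R1. CD70 spans chr19:6581648-6591150 on the - strand with 4 exons. Non-treated libraries 1, 2 and 3 had 3, 2 and 1 counts of CD70 and ATRA libraries 9, 13 and 6. CDK4/6i libraries had 15, 17 and 28 counts (0.778, 1.04 and 1.64 CPM) and CDK4/6i+ATRA libraries 16, 15 and 16 (1.47, 1.34 and 1.32 CPM). Non-treated was lowest, ATRA next, and CDK4/6i and CDK4/6i+ATRA overlapped above both. CD200 spans chr3:112332573-112362812 on the + strand, had 0 counts in all 12 libraries and was not tested.

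The ratio of CD70 to non-treated in summed counts was 4.56 with ATRA (exact 95% counting interval 1.85 to 13.5, edgeR adjusted p 0.00302). It was 9.55 with CDK4/6i (interval 4.14 to 27, edgeR adjusted p 2.68e-06). With CDK4/6i+ATRA the ratio was 11.5 (interval 4.92 to 33, edgeR adjusted p 3.7e-07). CDK4/6i+ATRA had 2.5 times the level with ATRA (log2 fold change 1.32, SE 0.43, edgeR adjusted p 0.0053). Between CDK4/6i+ATRA and CDK4/6i no call was made (log2 fold change 0.26, edgeR adjusted p 0.529), and library size alone gave -0.01.

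**Figure D3:**
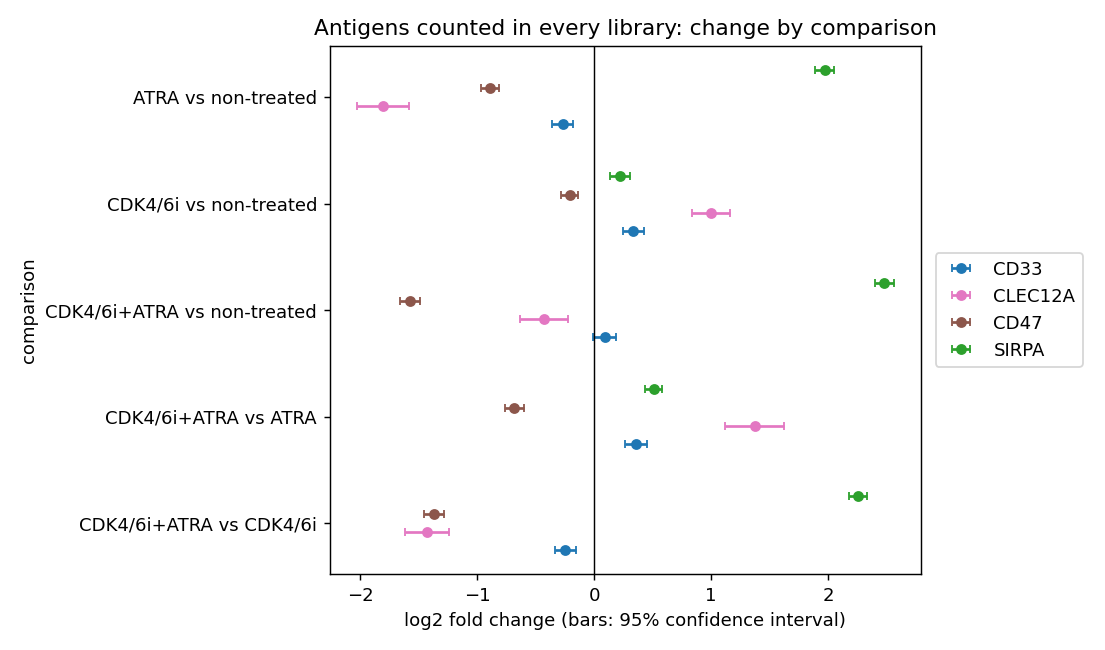
Log2 fold change (horizontal axis) of CD33, CLEC12A, CD47 and SIRPA, the antigens with at least 10 counts in every library, in 5 comparisons; bars are 95% confidence intervals. SIRPA reached 2.48 and CD47 -1.58 in CDK4/6i+ATRA against non-treated, where CD33 lay at 0.09 with TMM scaling and at -0.18 with library size alone.

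Calls were set beside those among all tested genes. Of 9 antigen genes tested, ATRA against non-treated called 9, 6 higher and 3 lower, where 67.6% of all genes were called. CDK4/6i against non-treated called 6, 5 higher and 1 lower, beside 56.2% of all genes; CD36 and CD93, at 0 counts in both groups, could not be called there. For CDK4/6i+ATRA against non-treated it was 8, 6 higher and 2 lower, beside 81.7%. CDK4/6i+ATRA called 9 against ATRA, 8 higher and 1 lower, beside 69.8%. Against CDK4/6i it called 8, 5 higher and 3 lower, beside 78.6%. These comparisons share the non-treated or the CDK4/6i+ATRA libraries, so their calls are not independent. CD44, HAVCR2, CD70, CD93 and CD36 passed the filter only through groups where they were high, so their share among the calls carries no weight. Library size alone moved the all-gene median of log2 fold changes by -0.27 in CDK4/6i+ATRA against non-treated, -0.31 against ATRA and -0.28 against CDK4/6i. Changes with CDK4/6i+ATRA are therefore relative to the bulk of genes, and under that scaling CD33 became lower than non-treated and lost its call against ATRA, CD93 lost its call against ATRA, and CD70 against CDK4/6i changed sign without a call.

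Whether the pair did more or less than its parts was tested as the interaction, the log2 fold change with ATRA in the presence of CDK4/6i minus that in its absence. It called 5 of the 9 antigen genes tested, 3 higher and 2 lower, near the 51.4% of all tested genes. Both counts include genes at 0 counts in some groups, 2 of the 9 here, that could not be called. CD47 had an interaction of -0.47 (SE 0.055, edgeR adjusted p 3.42e-10), or -0.79 with library size alone, and stood at 123 CPM, where multiplying the single folds gives 170.3. SIRPA had 0.29 (SE 0.054, edgeR adjusted p 1.24e-05) and stood at 743 CPM against 608 from the single folds, a call that library size alone removed (-0.03, edgeR adjusted p 0.609; 1.79e-06 to 0.609 over the alternatives). That scaling moved the median interaction of all genes by -0.32. For CD33 no interaction was called (0.02, SE 0.065, edgeR adjusted p 0.795), with 99.8 CPM measured and 98.3 from the single folds, but library size alone gave -0.30 (edgeR adjusted p 0.000135; 0.000135 to 0.989 over the alternatives). Its sign reversed without non-treated library 3 (-0.0054), ATRA library 2 (-0.019), CDK4/6i+ATRA library 2 (-0.00027) or CDK4/6i+ATRA library 3 (-0.0032).

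HAVCR2 stood at 4.86 CPM where the single folds give 0.190, an interaction of 4.46 (SE 1.4, edgeR adjusted p 0.00623) that dropped to 0.99 (edgeR adjusted p 0.746) without non-treated library 2, which holds all 4 non-treated counts. CLEC12A had an interaction of 0.37 (SE 0.15, edgeR adjusted p 0.0353), with 13.0 CPM measured and 9.97 from the single folds. The CLEC12A call was lost without non-treated library 1 or 2, ATRA library 1 or 2, CDK4/6i library 1 or 2, or any 1 of the CDK4/6i+ATRA libraries, with edgeR adjusted p from 0.0524 to 0.183. Library size alone also removed it (0.05, edgeR adjusted p 0.787), as did no filter (edgeR adjusted p 0.22) and DESeq2 (adjusted p 0.0737). CD70 had an interaction of -1.86 (SE 0.75, edgeR adjusted p 0.034), with 1.38 CPM measured and 5.23 from the single folds. That call was lost without non-treated library 2 or 3, ATRA library 1 or 2, CDK4/6i library 3, or CDK4/6i+ATRA library 2 or 3, with edgeR adjusted p from 0.0517 to 0.122. CD44 stood at 6.36 CPM against 2.44 from the single folds, with no call (1.51, SE 1.22, edgeR adjusted p 0.313). CD93 and CD36 had groups at 0 counts, so no interaction could be estimated.

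**Figure D4:**
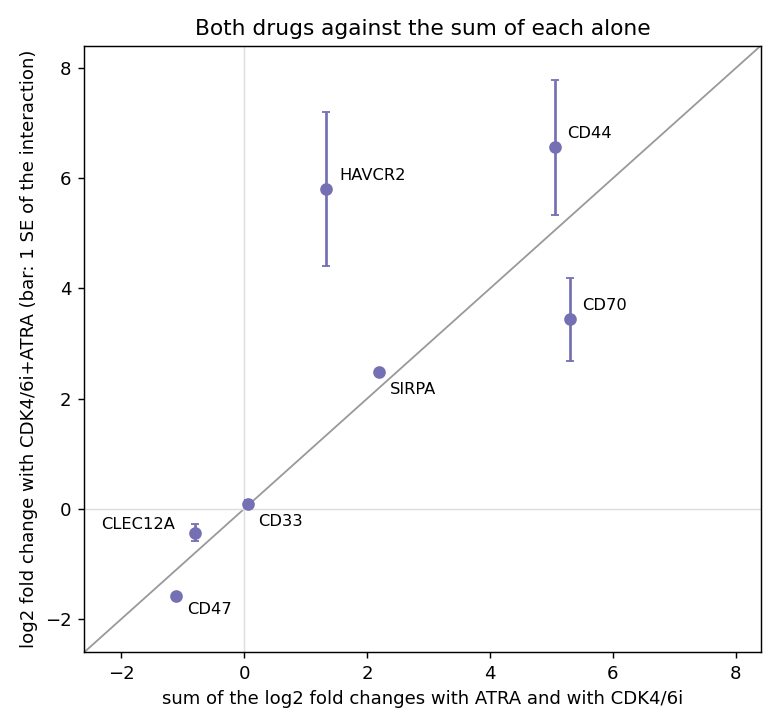
Log2 fold change with CDK4/6i+ATRA against non-treated (vertical axis, bars 1 SE of the interaction) over the summed log2 fold changes of ATRA alone and CDK4/6i alone (horizontal axis), for the 7 antigen genes where both could be estimated; the line marks equality. CD47 and CD70 lay below the line, and HAVCR2, CLEC12A and CD44 above it, CD44 without a call. The calls of CD70 and CLEC12A were lost when single libraries were left out. HAVCR2 fell to 0.99 above the line without non-treated library 2 and lost its call. SIRPA at 0.29 above the line fell to -0.03 with library size alone.

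Levels were compared between antigens per kilobase of exons, as CPM per kb. In non-treated cells CD47 led at 67.3, ahead of CD33 at 32.6, while CLEC12A at 6.29 and SIRPA at 5.91 overlapped. With CDK4/6i+ATRA the order was CD33 at 34.6, SIRPA at 32.9 and CD47 at 22.6, the first 2 overlapping, with CLEC12A at 4.66. The length given for SIRPA in the table is 22592 bases, against 4580 in its MANE Select transcript. With MANE Select lengths, an alternative chosen after seeing the data, non-treated cells had CD47 at 69.1, CD33 at 64.2, SIRPA at 29.1 and CLEC12A at 11.3, so that CD47 was no longer 2-fold over CD33 and the last 2 no longer overlapped. With CDK4/6i+ATRA these lengths gave SIRPA 162, CD33 68.3, CD47 23.2 and CLEC12A 8.34. The order of antigens thus depends on the length used. CD36 reached 3.31 with CDK4/6i+ATRA on the table's length, and HAVCR2 2.17.

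Related genes were read in 8 lists beside all tested genes, whose median log2 fold change was -0.028 with ATRA and 0.018 with CDK4/6i+ATRA, or 0.012 and -0.25 with library size alone. Of all tested genes ATRA called 32.1% higher and 35.5% lower, CDK4/6i 28.3% and 27.9%, and CDK4/6i+ATRA 41% higher and 40.7% lower. No list was tested against these shares, and the lists were chosen with earlier results of these data known. As with the antigens, some list genes passed the filter only through groups where they were high, which favours calls of higher, so each list is also given for genes with at least 10 counts in every library. Of all 10296 such genes ATRA called 34.6% higher and 39.1% lower, CDK4/6i 33% and 32.4%, and CDK4/6i+ATRA 43.8% and 42.7%. Among 26 other antigens targeted in myeloid leukemia 19 were tested, and CDK4/6i+ATRA against non-treated called 10 higher and 8 lower, beside the near-even split of all genes (median log2 fold change 0.32), or 8 and 9 with library size alone. ATRA called 9 higher and 7 lower (median 0.26), and CDK4/6i 11 higher and 2 lower (median 0.37). With at least 10 counts in every library 14 were left, 7 higher and 6 lower with CDK4/6i+ATRA (median 0.19). These 14 had 7 higher and 5 lower with ATRA (median 0.14), and 10 higher and 1 lower with CDK4/6i (median 0.42). CD38 stood at 0.179 CPM (SD 0.263) in non-treated and 0.188 with CDK4/6i, against 399 with ATRA and 405 with both agents. The pair was higher than non-treated (edgeR adjusted p 3.06e-52), where libraries held 0 to 8 counts. Between the pair and ATRA no call was made for CD38 (log2 fold change 0.02, edgeR adjusted p 0.672), though library size alone gave -0.29 (edgeR adjusted p 8.87e-07). ADGRE2 went from 9.79 CPM in non-treated to 48.3, 25.2 and 440.4 with ATRA, CDK4/6i and the pair (log2 fold change 5.48 for the pair, edgeR adjusted p 2.89e-52). CCR1 went from 15.3 CPM to 178, 23.8 and 360.4 (4.55, edgeR adjusted p 1.47e-49). FLT3 fell from 12.4 CPM to 2.37, 3.58 and 0.735 (-4.08, edgeR adjusted p 5.13e-22). IL3RA, LILRB4 and CD99 had 0 counts in every library and are also listed on a further contig or chromosome, and whether that left their reads uncounted was not tested.

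For the CD47 and SIRPA axis with other phagocytosis signals, 14 of 15 genes were tested. ATRA called 8 higher and 3 lower (median log2 fold change 0.73) and CDK4/6i+ATRA 8 higher and 4 lower (median 0.86). Of the 9 with at least 10 counts in every library each called 5 higher and 3 lower (medians 0.42 and 0.76). CDK4/6i called 7 higher and 1 lower, or 6 and 1 of these 9. THBS1, a further ligand of CD47, stood at 0.321, 28.2, 0.429 and 223 CPM in non-treated, ATRA, CDK4/6i and CDK4/6i+ATRA (log2 fold change 9.42 for the pair against non-treated, edgeR adjusted p 8.73e-50). CALR, a signal for engulfment, stood at 2730, 747, 3508 and 493 CPM (-2.47, edgeR adjusted p 8.64e-43). CD24 stood at 3.49, 3.72, 11.3 and 0.767 CPM (-2.18, edgeR adjusted p 1.44e-09), and its receptor SIGLEC10 at 6.91, 32.5, 7.10 and 57.8 CPM (3.06, edgeR adjusted p 2.03e-34).

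Partners of HAVCR2, CD200, CD70 and CD93 had 5 of 14 genes tested, and CDK4/6i+ATRA called 3 higher and 2 lower (median log2 fold change 0.60), or 2 and 1 of the 3 with at least 10 counts in every library. The median with ATRA was -0.01, or 0.03 with library size alone, with 2 higher and 2 lower. Of the 3 with at least 10 counts in every library ATRA called 1 higher and 1 lower (median 0.01). CDK4/6i called 3 higher and 1 lower of the 5, or 2 and 1 of the 3. CD27 and CD200R1, the receptors of CD70 and CD200, had 9 and 8 counts over the 12 libraries and were not tested. CEACAM1, a ligand of HAVCR2, stood at 0.12, 110.2, 0.191 and 93.4 CPM in non-treated, ATRA, CDK4/6i and CDK4/6i+ATRA. It was higher with the pair than in non-treated (edgeR adjusted p 1.58e-43), where libraries held 0 to 6 counts (SD 0.208 CPM). HMGB1 fell to 193 CPM with CDK4/6i+ATRA from 1552 (SD 30.7) in non-treated (log2 fold change -3.01, edgeR adjusted p 3.47e-47). IGFBP7, a ligand of CD93, fell from 4.23 to 0.265 CPM (-3.96, edgeR adjusted p 2.98e-14), and GIPC1 rose from 8.05 to 23.6 CPM (1.55, edgeR adjusted p 1.43e-18).

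Immune checkpoint and costimulation ligands had 11 of 18 genes tested. ATRA called 8 higher and 1 lower (median log2 fold change 1.00), and CDK4/6i+ATRA 10 higher and 1 lower (median 2.93). The counts were the same under library size alone, and 67.6% and 81.7% of all genes were called in either direction. CD276, TNFSF4 and TNFSF9 passed the filter only through groups where they were high, so the share called among the 11 carries no weight. With at least 10 counts in every library 8 were left. They had 6 higher and 1 lower with ATRA (median 0.87) and 7 higher and 1 lower with CDK4/6i+ATRA (median 1.84). Of all such genes 73.7% and 86.5% were called in either direction. CDK4/6i called 6 higher and 1 lower of the 11, and also of the 8. CD86 stood at 1.20, 6.98, 3.26 and 83.0 CPM in non-treated, ATRA, CDK4/6i and CDK4/6i+ATRA (log2 fold change 6.09 for the pair, edgeR adjusted p 2.37e-40). VSIR stood at 40.5, 479, 77.3 and 506 CPM (3.64, edgeR adjusted p 2.71e-49). CD58 rose from 4.31 to 57.7 CPM with the pair (3.74, edgeR adjusted p 7.48e-36). TNFSF9, with at most 2 counts in any non-treated library, reached 10.7 CPM with ATRA and 48.2 with CDK4/6i+ATRA.

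Siglecs other than CD33 had 9 of 14 genes tested. ATRA called 7 higher and 1 lower (median log2 fold change 1.55) and CDK4/6i+ATRA 6 higher and 2 lower (median 1.55). Of the 5 with at least 10 counts in every library ATRA called 4 higher and 1 lower, and CDK4/6i+ATRA 3 and 1. CDK4/6i called 5 higher and 0 lower of the 9, or 4 and 0 of these 5. SIGLEC14 stood at 13.3, 38.9, 28.9 and 38.8 CPM in non-treated, ATRA, CDK4/6i and CDK4/6i+ATRA (log2 fold change 1.55 for the pair, edgeR adjusted p 1.2e-23). SIGLEC7 reached 7.83 CPM and SIGLEC9 5.94 CPM with CDK4/6i+ATRA, from 0.272 and 0.122 in non-treated. Among C-type lectin receptors other than CLEC12A 9 of 15 were tested, and CDK4/6i+ATRA called 6 higher and 1 lower (median 3.15), against 5 and 2 with ATRA (median 1.41). Only 3 of them had at least 10 counts in every library, 1 higher and 1 lower with CDK4/6i+ATRA (median -0.06). With ATRA these 3 had 1 higher and 2 lower (median -0.95), the reverse of the full list. CDK4/6i called 3 higher and 1 lower of the 9, or 1 and 1 of the 3. CLEC4A reached 24.4 CPM with the pair and CLEC7A 8.97 CPM, from 0.137 and 0.273 in non-treated. CLEC11A fell from 65.4 to 3.94 CPM (-4.05, edgeR adjusted p 4.69e-37). OLR1, at 0 counts in non-treated, reached 6.53 CPM with the pair.

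Hyaluronan enzymes and CD44 partners had 15 of 22 genes tested, with 8 higher and 5 lower under CDK4/6i+ATRA and a median log2 fold change of 0.09, or -0.17 with library size alone, where the median of all genes was -0.25. The 10 with at least 10 counts in every library had 5 higher and 5 lower (median -0.35). With ATRA there were 7 higher and 5 lower of the 15. Their median was 0.29, or 0.10 with a gene at 0 counts in non-treated set at its bound. Of the 10 with at least 10 counts in every library ATRA called 4 higher and 5 lower (median -0.017). CDK4/6i called 7 higher and 3 lower of the 15, or 6 and 3 of the 10. HMMR stood at 88.3, 131, 13.7 and 1.96 CPM in non-treated, ATRA, CDK4/6i and CDK4/6i+ATRA (-5.49 for the pair, edgeR adjusted p 1.09e-42). CEMIP2 rose from 1.95 to 49.3 CPM with the pair (4.66, edgeR adjusted p 4.74e-36), SPP1 from 1.47 to 33.4 (4.50, edgeR adjusted p 5.33e-30) and MMP14 from 0.358 to 18.3 (5.64, edgeR adjusted p 6.58e-27). Scavenger receptors and lipid genes beside CD36 had 11 of 18 genes tested, with 6 higher and 3 lower (median 1.10), or 6 and 5 with library size alone, and 6 and 4 with ATRA (median 0.70). The 8 with at least 10 counts in every library had 3 higher and 3 lower with CDK4/6i+ATRA (median -0.13). With ATRA these 8 had 3 higher and 4 lower (median -0.28). CDK4/6i called 3 higher and 2 lower of the 11, or 2 and 2 of the 8. CXCL16 reached 20.7 CPM and PPARG 5.41 CPM with the pair, from 0.020 and 0.117 in non-treated. SCARB1 fell from 114 CPM in non-treated to 37.1 with ATRA and 9.86 with CDK4/6i+ATRA (-3.53, edgeR adjusted p 1.41e-40).

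**Figure D5:**
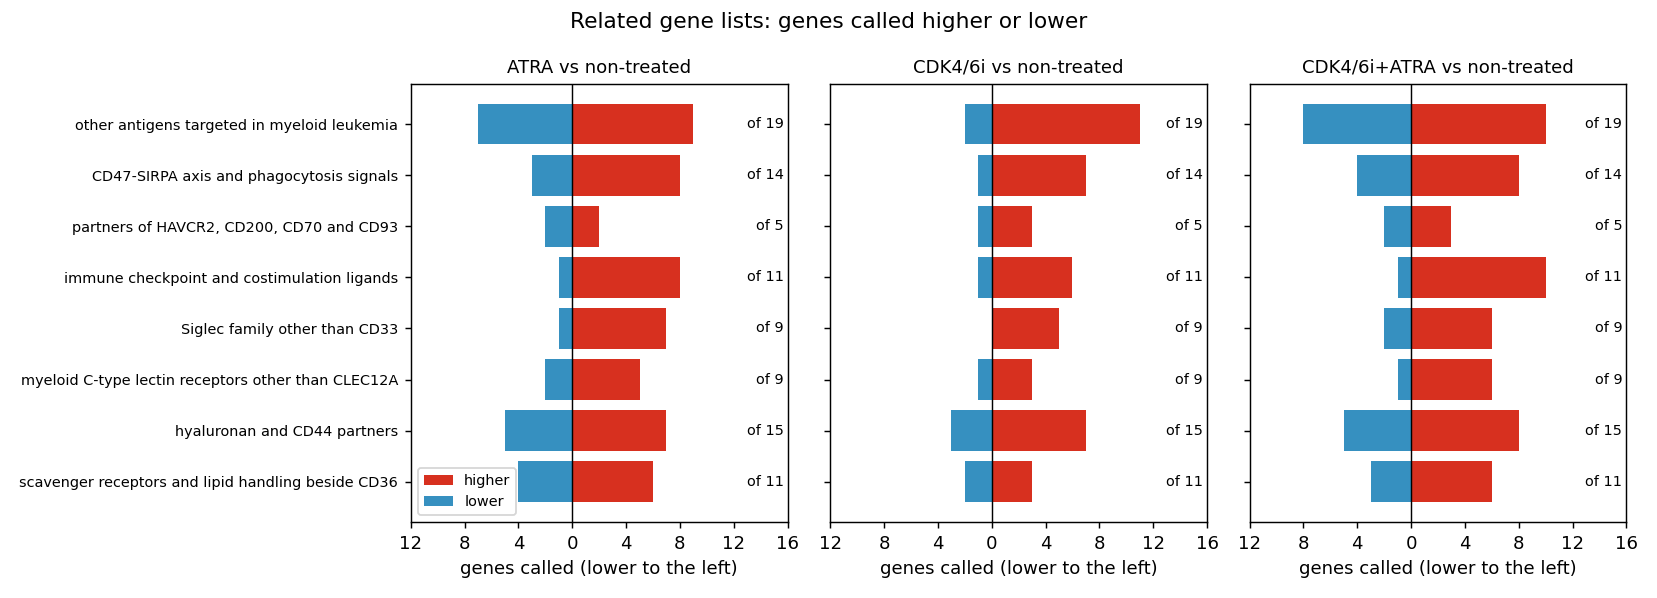
Genes called higher (right) or lower (left) in the 8 related lists (horizontal axis, number of genes; the number tested stands at the right edge) for 3 comparisons with non-treated. Checkpoint and costimulation ligands had 10 of 11 higher with CDK4/6i+ATRA, of which CD276, TNFSF4 and TNFSF9 passed the filter only through groups where they were high. Of the 8 with at least 10 counts in every library 7 were higher, where 43.8% of all such genes were. No list was tested against such a share, and the lists were chosen with earlier results of these data known. With library size alone the other antigens under CDK4/6i+ATRA had 8 higher and 9 lower in place of 10 and 8.

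Genes whose pattern over the 12 libraries lay nearest to that of each tested antigen were named as a description, since they were picked for that likeness. CD33 lay nearest to EIF2D, LPCAT2 and RSL24D1, and CLEC12A to RNF130, LINC01215 and HOMER1. RNF130 stood at 38.8, 13.3, 60.6 and 26.3 CPM in non-treated, ATRA, CDK4/6i and CDK4/6i+ATRA. CD47 lay nearest to HSPA9, MTAP and AHSA1, of which HSPA9, a mitochondrial chaperone, stood at 422, 216, 357 and 143 CPM. SIRPA lay nearest to RNF141, TRIM38 and ELK3, with RNF141 at 16.5, 65.6, 19.6 and 98.5 CPM. CD36 lay nearest to SLC5A3, PLXNA1 and TFEB. CD44 lay nearest to ZEB2, MACC1 and BACH1, and HAVCR2 to NQO1, BACH1 and ZEB2. ZEB2 stood at 57.9, 79.9, 60.7 and 373 CPM. CD93 lay nearest to ITGAV, CYRIB and ACSL1, and CD70 to CD37, PAM and HTATSF1P2. The 1 added to each CPM before the log flattens the pattern of CD44, HAVCR2, CD93 and CD70, whose means were 1.81, 1.32, 0.813 and 0.799 CPM. Nearness there does not mean a like fold change. CD36 and CD93 were at 0 CPM in non-treated, where SLC5A3 and ITGAV stood at 15.1 and 19.2 CPM.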

How the data were processed

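RNA-Seq of HL60 cells covered 12 libraries in 4 groups of 3, taken from the column labels. The authors trimmed reads with Trimmomatic 0.33, aligned them to hg38 with STAR 2.7.11a under RefSeq annotation, and deposited raw gene counts, whole numbers without normalization. The study names RSEM for counting, while the table has the layout of featureCounts. How the counting treated strand, and reads falling on more than 1 place, is not given in the sources used here.

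The counts as deposited were tested with edgeR 4.0.16 (limma 3.58.1, R 4.3.3): filterByExpr on the 4 groups kept 13318 of 59251 genes, TMM scaled the libraries, and quasi-likelihood F tests on group means used all 12 libraries (8 residual degrees of freedom, biological coefficient of variation 3.7%), with Benjamini-Hochberg adjustment at 0.05. A gene called higher or lower passed that threshold. No block was used. The code was tested on simulated counts. Total counts ran from 12230923 to 18679544 per library, where 3 counts are 0.245 and 0.161 CPM on plain library size. Ratios of low counts have exact 95% counting intervals.

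Results were refitted with scaling by library size alone or by the size factors of DESeq2, the replicate number as a block, a test with DESeq2 1.42.0, no filter, a minimum of 10 counts in every library, a fit of only the groups compared, and leaving out each library. Added after seeing the data were leaving out genes listed on more than 1 contig or chromosome (4468 genes, none of them an antigen), MANE Select lengths (GENCODE 44) and list counts for genes with at least 10 counts in every library.

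The antigen genes and the 8 lists (138 genes) were chosen with earlier results of these data known. Named were every antigen, up to 4 genes per list with the largest significant change in CDK4/6i+ATRA against non-treated and at least 5 CPM in a group, and the 3 genes of at least 10 CPM nearest each antigen in log2(CPM + 1) pattern. CD27, CD200R1, IL3RA, LILRB4, CD99 and SIRPB1 were named after their values were seen. Promoter motifs were searched in the 250 bases before RefSeq starts (GRCh38.p14), where CD33, CLEC12A, CD47, CD44, CD200 and CD36 were matched. Figures were drawn with matplotlib 3.10.9, pandas 2.3.3 and numpy 2.4.6 in Python 3.11.15. ChIP-Seq data were not used here.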

Additional observations from a re-analysis of the deposited data

Results flagged for a closer look

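By edgeR's interaction test the effect of ATRA differed between cells with and without CDK4/6i for CD47, SIRPA, HAVCR2, CLEC12A and CD70. These are 5 of the 9 antigen genes tested, near the 51.4% called among all 13318 tested genes, and HAVCR2 and CD70 passed the filter only through groups where they were high, so the share carries no weight. Among genes with at least 10 counts in every library it was 3 of 4 antigens, beside 60.8% of all. Each value is the log2 fold change with ATRA in the presence of CDK4/6i minus that in its absence.

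The difference was -0.47 for CD47 (edgeR adjusted p 3.42e-10), as ATRA changed CD47 by -1.37 with CDK4/6i and by -0.89 without it. For SIRPA it was 0.29 (edgeR adjusted p 1.24e-05), from changes of 2.26 and 1.97. HAVCR2 had 4.46 (edgeR adjusted p 0.00623), from 6.23 and 1.77, where CDK4/6i and non-treated held 3 and 4 counts in sum. CLEC12A had 0.37 (edgeR adjusted p 0.0353), from -1.43 and -1.80. CD70 had -1.86 (edgeR adjusted p 0.034), from 0.26 and 2.12.

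CD47 kept its call under the 7 alternatives run for the interaction and without each library. SIRPA and CLEC12A lost it with library size alone, CLEC12A also with no filter (edgeR adjusted p 0.22) and by DESeq2 (adjusted p 0.0737), and HAVCR2, CLEC12A and CD70 lost it when single libraries were left out, HAVCR2 only without non-treated library 2 (0.99, edgeR adjusted p 0.746). The cause of these differences was not tested. With 3 libraries per group no library was tested as an outlier.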

How the results depend on the processing

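Antigen fold changes were refitted under 8 alternatives and 12 left-out libraries, 962 values over 50 fold changes. Direction and side of the threshold were kept by 898, 49 lost their call, 3 gained one and 12 reversed.

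With library size alone these reversed: CD33 in CDK4/6i+ATRA against non-treated (-0.18), CD70 in CDK4/6i+ATRA against CDK4/6i (-0.014), and the interactions of CD33 (-0.30) and SIRPA (-0.030). With no filter CD33 reversed in CDK4/6i+ATRA against non-treated (-0.020) and in the interaction (-0.062). HAVCR2 in CDK4/6i against non-treated reversed without non-treated library 2 (3.03) or CDK4/6i library 3 (0.073), in a range of -1.21 to 3.03. The CD33 interaction reversed without non-treated library 3 (-0.0054), ATRA library 2 (-0.019), CDK4/6i+ATRA library 2 (-0.00027) or library 3 (-0.0032), in a range of -0.019 to 0.065. The cause was not tested, though library size alone moves all genes of a comparison alike. It changed the share of called genes that were higher from 50.2% to 40.5% in CDK4/6i+ATRA against non-treated, from 53% to 31.6% against ATRA, from 49.8% to 36.7% against CDK4/6i and from 47.5% to 18.5% in the interaction.

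A minimum of 10 counts in every library left 4 antigens tested, CD33, CLEC12A, CD47 and SIRPA. It called 4 of them in ATRA against non-treated, beside 73.7% of all genes so filtered. The same 4 were called in CDK4/6i (beside 65.5%) and in CDK4/6i+ATRA (beside 86.5%) against non-treated. In CDK4/6i+ATRA it called 4 against ATRA (beside 77%), 4 against CDK4/6i (beside 83.7%) and 3 in the interaction (beside 60.8%). Fewer antigens were called because fewer were tested, though CD33 in CDK4/6i+ATRA against non-treated gained a call (edgeR adjusted p 0.0146). Leaving out a library gave 2 to 5 antigen calls in the interaction against 5 with all libraries. It gave 8 to 9 in ATRA, 5 to 6 in CDK4/6i and 8 to 9 in CDK4/6i+ATRA against non-treated, 8 to 9 in CDK4/6i+ATRA against ATRA, and 8 against CDK4/6i. Counts over all genes stayed within 1.5 times under every alternative. Without genes on more than 1 contig, chosen after seeing the data, HAVCR2 in ATRA against non-treated lost its call (edgeR adjusted p 0.0506).

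Replicate numbers showed no sign of pairing the libraries. Correlations of deviations between same-numbered libraries of different groups ran from -0.175 to 0.101, with 1 of 18 over 0.1. Between libraries of different number they ran from -0.137 to 0.164, with 2 of 36 over 0.1. With 3 libraries per group this check can miss pairing and does not exclude it. With the number as a block, calls over all genes went from 9006 to 8915 (ATRA), 7482 to 7392 (CDK4/6i) and 10885 to 10824 (CDK4/6i+ATRA against non-treated), 9291 to 9213 (against ATRA), 10473 to 10416 (against CDK4/6i) and 6852 to 6775 (interaction). Under the block the edgeR adjusted p was 0.0536 for HAVCR2 in ATRA against non-treated and 0.0527 for CD93 in CDK4/6i+ATRA against ATRA, and no other antigen call changed.

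Depth limits CD44, HAVCR2, CD70, CD93 and CD36, which had few or no counts in some groups, so small changes between those groups were not detectable. Levels of mRNA, 1 time point, 1 cell line and 3 libraries per group bound all results.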
